A study of Mus musculus with 8 samples.

Results

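A set of 10 genes of hepatic stellate cells and of the TGF-beta pathway were followed in livers with and without hepatocyte Smo. Taken by symbol, they were Acta2, Tagln, Des, Vim, Pdgfra, Pdgfrb, Lrat, Tgfb1, Tgfbr2 and Lox, out of 25239 gene symbols counted in every liver. All 10 had enough reads to pass the filter on low counts. Bulk RNA-Seq had been performed on whole livers of 4 control and 4 Smo-KO mice. All 8 were adult male mice homozygous for a floxed Smo allele (Smo tm2Amc/J, Smo fl/fl) on a C57Bl6/J background. They were fed a choline-deficient, amino acid-defined high-fat diet (CDA-HFD), which produces steatohepatitis with fibrosis, for 6 weeks and received a vector by tail vein 1 week before sacrifice. Control mice received AAV8-TBG-Luciferase and Smo-KO mice AAV8-TBG-Cre Recombinase. The labels name the control genotype wild type although these mice carry the floxed allele too. The TBG promoter is active in hepatocytes, so that stellate cells, which express most of the genes described here, were not the cells in which Cre was driven. Control and Smo-KO mice also differed in the protein that the vector encoded, and the effects of Cre itself and of Smo loss cannot be told apart. No liver on a normal diet was included here, so that the levels below are all levels in fed, injured livers. Between 8203299 and 9999732 reads per liver fell on genes.

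Hepatic stellate cells are the pericytes of the liver sinusoid. In the quiescent state they store vitamin A as retinyl esters, and after injury they become myofibroblasts that contract and deposit collagen. TGF-beta, which is secreted in a latent complex and signals through a pair of receptor kinases to SMAD transcription factors, is the best known inducer of this change, and PDGF is the best known mitogen of the same cells. The enzymes of the lysyl oxidase family then cross-link the collagen that has been laid down. In bulk RNA, fewer cells of a type and less RNA per cell cannot be told apart.

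The targeted gene was examined first. Smo, the receptor-like transducer of Hedgehog signals, was counted at 8.16, 8.48, 8.73 and 8.2 CPM (reads on the gene per 1e6 of TMM-scaled library size) in control mice 1 to 4. The values in Smo-KO mice 1 to 4 were 5.66, 3.92, 4.26 and 4.37 CPM. Every Smo-KO liver was below every control liver, and the Smo-KO mean was 54.3% of the control mean (4.55 ± 0.764 against 8.39 ± 0.270 CPM, SD, n = 4 a group). A two-sided exact permutation test gave p = 0.0286, the smallest p that 4 against 4 mice can give. In the test across all genes Smo had a log2 fold change of -0.88 (SE 0.16, edgeR adjusted p = 0.0957).

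None of the 10 genes passed edgeR's quasi-likelihood test with Benjamini-Hochberg adjustment over 12977 genes: 0 of 10 had an adjusted p under 0.05, 0 of 10 an unadjusted p under 0.05, and for 0 of 10 were the 2 groups of livers separate. Over all genes tested, 0% had an adjusted p under 0.05, 13.8% an unadjusted p under 0.05 (6.7% with a fold change above 0 and 7.15% below), and 7.37% had groups that did not overlap. DESeq2, the other tool used, called 1.29% of all genes at an adjusted p of 0.05 and 0 of the 10. Of the 10 genes, 5 had a fold change above 0 and 5 below, with a median log2 fold change of -0.0064 against -0.00084 over all genes. The point estimates ran from -0.42 (Lox) to 0.36 (Acta2), and the middle 50% of all genes lay between -0.13 and 0.13.

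Among the cytoskeletal and contractile genes, Acta2 varied most between Smo-KO livers. It encodes smooth muscle alpha-actin, the usual marker of activated stellate cells (GRCm38 chr19:34241090-34255590, minus strand). It stood at 10.6, 10.8, 9.33 and 8.003 CPM in control mice 1 to 4 and at 9.78, 7.73, 13.5 and 18.5 CPM in Smo-KO mice 1 to 4. Smo-KO mice 3 and 4 were above all controls, Smo-KO mouse 1 lay among them and Smo-KO mouse 2 lay below them all, so that the groups overlapped. The means were 9.69 ± 1.30 and 12.4 ± 4.74 CPM (SD, n = 4 each), with a log2 fold change of 0.36 (SE 0.23, 95% interval -0.15 to 0.86, edgeR adjusted p = 0.521). Counts were low, 71 to 174 reads per liver. The estimate was 0.09 without Smo-KO mouse 4 and 0.53 without Smo-KO mouse 2, where the adjusted p was 0.337.

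Tagln, which encodes the actin-binding protein transgelin (chr9:45929619-45936058, minus strand), was more abundant. The control livers lay close together, at 39.1, 36.1, 36 and 38.1 CPM. Smo-KO livers 1 to 4 had 36.5, 36.4, 46.9 and 45.9 CPM. The 4 values fell into a pair within the control range and a pair above it, the latter being mice 3 and 4, as for Acta2. The log2 fold change was 0.15 (SE 0.11, interval -0.08 to 0.38, edgeR adjusted p = 0.567). On the opposite strand, 1241 exon bases of Tagln are shared with the antisense gene Gm48529 and 108 with Pcsk7. The strand setting of the counting is not given in the sources used here, and without strand reads from such partners cannot be told apart.

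Des encodes desmin, an intermediate filament protein that marks rodent stellate cells (chr1:75360329-75368579, plus strand). Its values were 13.3, 10.7, 10.5 and 11.9 CPM in control mice and 13.8, 9.59, 11.1 and 14.8 CPM in Smo-KO mice. The Smo-KO values spanned a range that held all controls, with mouse 4 at the top and mouse 2 at the bottom (log2 fold change 0.09, SE 0.16, interval -0.24 to 0.43, edgeR adjusted p = 0.828). Vim encodes vimentin, the intermediate filament protein of mesenchymal cells and of leukocytes as well (chr2:13573927-13582826, plus strand). It was measured at 222, 231, 215 and 219 CPM in control mice and at 208, 177, 255 and 236 CPM in Smo-KO mice. Again the Smo-KO livers lay on both sides of the controls, and the means, 222 ± 6.56 and 219 ± 34.0 CPM (SD, n = 4 each), gave a log2 fold change of -0.02 (SE 0.11, interval -0.25 to 0.21, edgeR adjusted p = 0.962).

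**Figure D1:**
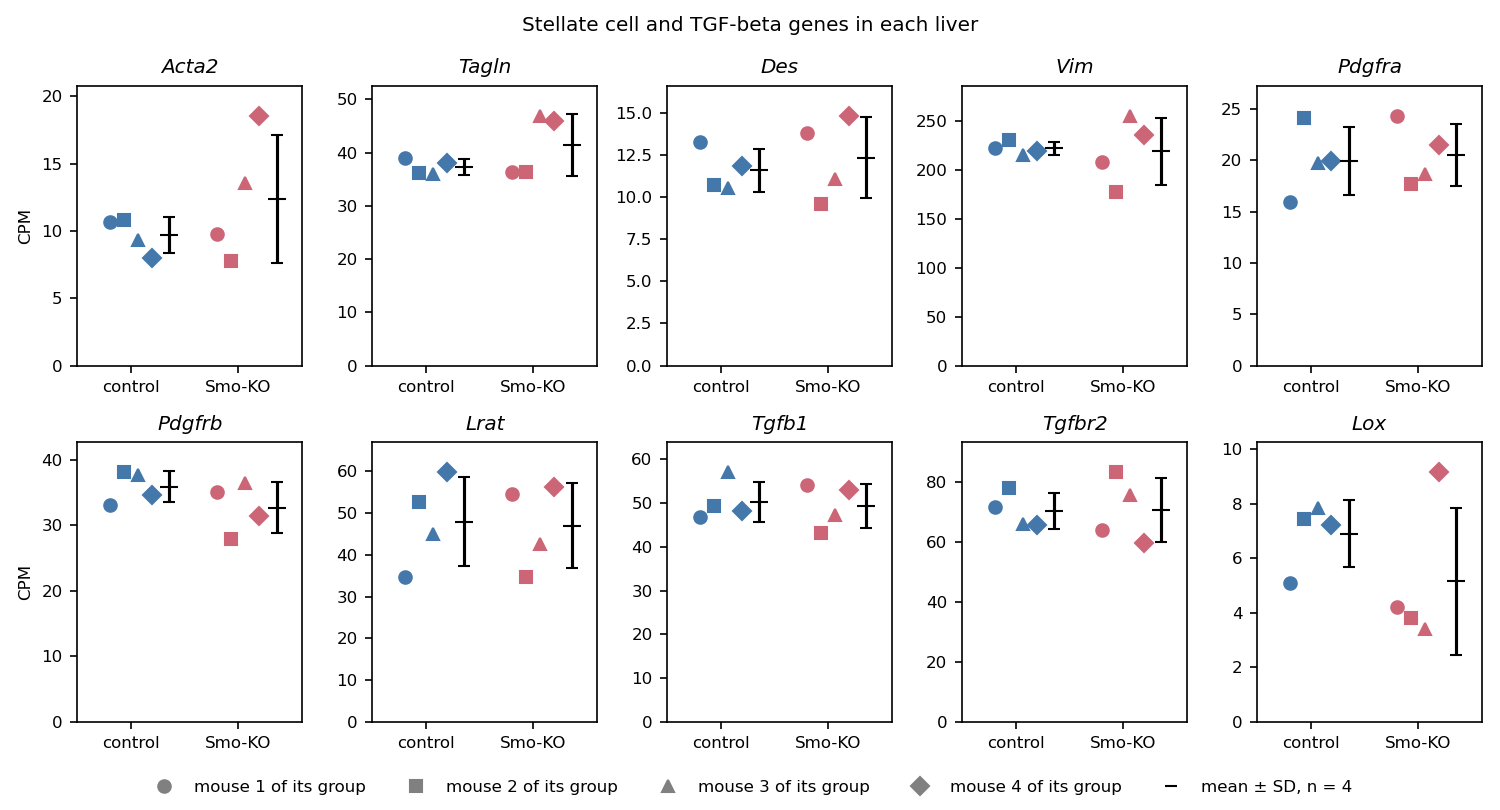
The plots give the level of each of the 10 genes in CPM (vertical axis, from 0) in the 4 control and the 4 Smo-KO livers, with 1 symbol for each mouse and the mean ± SD beside each group. In every panel the groups overlap; Smo-KO mouse 4 (diamond) was highest of the 8 for Acta2 (18.5 CPM), Des (14.8 CPM) and Lox (9.16 CPM), and Smo-KO mouse 2 (square) was lowest for Acta2, Des, Vim, Pdgfrb and Tgfb1.

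The PDGF receptors came next. Pdgfra encodes the receptor kinase that binds PDGF-A and PDGF-C and is carried by quiescent stellate cells and fibroblasts (chr5:75152292-75198215, plus strand). Control livers had 16.0, 24.1, 19.8 and 19.96 CPM and Smo-KO livers 24.3, 17.6, 18.6 and 21.5 CPM. The groups covered nearly the same range, and the log2 fold change was 0.04 (SE 0.14, interval -0.26 to 0.35, edgeR adjusted p = 0.924). Pdgfra shares 456 and 166 exon bases with Gm42802 and Gm42803 on the opposite strand.

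Pdgfrb encodes the receptor for PDGF-B, expressed by stellate cells and other pericytes (chr18:61045150-61085061, plus strand). Control livers had 33.2, 38.1, 37.7 and 34.6 CPM and Smo-KO livers 35.1, 27.9, 36.4 and 31.4 CPM. Smo-KO mice 2 and 4 were below all controls and mice 1 and 3 among them. The log2 fold change was -0.14 (SE 0.10, interval -0.36 to 0.09, edgeR adjusted p = 0.596), and it stayed below 0 with each mouse left out in turn (-0.19 to -0.07).

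Lrat encodes lecithin retinol acyltransferase, the enzyme that forms retinyl esters in quiescent stellate cells and the most specific stellate marker of the 10 in liver (chr3:82892579-82903973, minus strand). It had the largest spread of the 10 among control livers, 34.7, 52.6, 44.9 and 59.8 CPM, a coefficient of variation of 22.4%. Smo-KO livers had 54.5, 34.8, 42.5 and 56.2 CPM. Each group thus held a liver near 35 CPM and a liver above 56 CPM, with the others between, and the log2 fold change was -0.03 (SE 0.18, interval -0.41 to 0.35, edgeR adjusted p = 0.963).

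In the TGF-beta pathway, the ligand and the receptor did not differ beyond the spread of the mice. Tgfb1 encodes the main TGF-beta ligand, made in liver by macrophages, platelets and stellate cells (chr7:25687002-25705077, plus strand). It stood at 46.9, 49.3, 57.1 and 48.1 CPM in control and at 54.1, 43.3, 47.4 and 53.0 CPM in Smo-KO livers. Control mouse 3 was the highest and Smo-KO mouse 2 the lowest of the 8, and all others lay between 46.9 and 54.1 CPM. The means were 50.4 ± 4.59 and 49.4 ± 5.06 CPM (SD, n = 4 each), and the log2 fold change was -0.03 (SE 0.10, interval -0.25 to 0.20, edgeR adjusted p = 0.938).

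Tgfbr2, the receptor subunit that binds the ligand (chr9:116084293-116175360, minus strand), was measured at 71.7, 77.9, 65.9 and 65.4 CPM in control and at 63.9, 83.1, 75.5 and 59.6 CPM in Smo-KO livers. Here Smo-KO mouse 2 was the highest and Smo-KO mouse 4 the lowest, the reverse of their places for Acta2 and Des. The log2 fold change was 0.01 (SE 0.11, interval -0.24 to 0.25, edgeR adjusted p = 0.988). With 4 mice a group, the 95% intervals of Tgfb1, Tgfbr2 and Vim reached to between -0.25 and 0.25 on the log2 scale, and smaller differences in either direction were not resolved.

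Lox encodes lysyl oxidase, which cross-links collagen and elastin outside the cell (chr18:52516067-52529867, minus strand). Control livers had 5.10, 7.44, 7.84 and 7.21 CPM and Smo-KO livers 4.22, 3.81, 3.41 and 9.16 CPM, from 28 to 86 reads. Smo-KO mice 1, 2 and 3 were below every control and Smo-KO mouse 4 above every control. Smo-KO mouse 4 set the group's spread, a coefficient of variation of 52.3%, the largest of the 10. The means were 6.90 ± 1.23 and 5.15 ± 2.69 CPM (SD, n = 4 each), and the log2 fold change was -0.42 (SE 0.28, interval -1.03 to 0.20, edgeR adjusted p = 0.541). Without Smo-KO mouse 4 it was -0.85 (edgeR unadjusted p = 0.0015, adjusted p = 0.249).

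Per length of exon, the 10 genes spanned a wide range of levels in control livers. Vim was the most abundant at 46.8 ± 1.38 CPM per kb of exon (SD, n = 4, as for all of these), followed by Tagln at 18.8 ± 0.760. Tgfb1 at 9.99 ± 0.910, Lrat at 8.96 ± 2.01 and Tgfbr2 at 8.58 ± 0.717 followed. Lrat differed from neither Tgfb1 nor Tgfbr2 by more than its own SD, while Tgfb1 exceeded Tgfbr2 by more than the SD of either. Pdgfrb at 6.55 ± 0.439, Acta2 at 4.41 ± 0.594 and Des at 3.08 ± 0.337 came next, each below the one before by more than either SD. Pdgfra at 1.99 ± 0.331 and Lox at 1.44 ± 0.257 CPM per kb were the least abundant. The smooth muscle actin gene was therefore below Tgfb1, Lrat and Pdgfrb in these livers on the scale per length. The coefficient of variation of the 10 genes had a median of 10.02% over control livers (2.95% for Vim to 22.4% for Lrat) and of 15.4% over Smo-KO livers (10.2% for Tgfb1 to 52.3% for Lox).

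Genes whose levels over the 8 livers were most like those of Acta2 and Lrat were sought among 12939 genes, by the mean absolute difference of standardised log2 CPM in units of SD. Nearest to Acta2 were Dnase1 (0.255), Med7 (0.258), Pabpn1 (0.286), Anapc11 (0.288) and Zfp512 (0.289). Nearest to Lrat were Rasgef1b (0.294), Dcn (0.298), Nuak1 (0.312), Hmgn3 (0.343) and Ptpre (0.343). Dcn, which encodes decorin, a matrix proteoglycan of stellate cells and fibroblasts, also stands in the list of fibrillar matrix genes used below. The likeness is a description over these 8 livers, and each gene was picked for being nearest.

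The genes around the 10 in each pathway were then described from lists. Of 12 contractile genes tested, which included a myosin light chain, tropomyosins, calponin and the actin-regulated transcription factors, 4 had a fold change above 0 and 8 below, 0 with an unadjusted p under 0.05, and the median log2 fold change was -0.12. The smallest p values belonged to Cnn2, calponin 2 (log2 fold change -0.26, SE 0.14, edgeR adjusted p = 0.42), and Mrtfa, a coactivator of serum response factor (log2 fold change -0.24, SE 0.13, edgeR adjusted p = 0.423). Their estimates lay below 0 while those of Acta2 and Tagln lay above 0. The thirteenth gene, Myocd, which encodes the smooth muscle coactivator myocardin, was at 0 reads in 7 of 8 livers and was not tested.

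Of the quiescent stellate markers, 13 of 14 were tested, and 5 (38.5%) had an unadjusted p under 0.05, beside 13.8% of all genes; 0 had an adjusted p under 0.05. Of these 5, 2 had a fold change above 0, among them Hand2, and 3 below, Ngfr, Hgf and Tcf21, so the list had no common direction. Ngfr encodes the low-affinity neurotrophin receptor p75, which stellate cells carry. It stood at 9.97, 11.9, 11.9 and 7.31 CPM in control and at 6.59, 4.90, 3.17 and 6.28 CPM in Smo-KO livers. All 4 Smo-KO livers were below all controls, with means of 10.3 ± 2.19 and 5.24 ± 1.56 CPM (SD, n = 4 each). Its log2 fold change was -0.96 (SE 0.23), with an adjusted p of 0.14 by edgeR and 0.0134 by DESeq2, which called only this gene of the 13.

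Others with an unadjusted p under 0.05 were Hand2, a transcription factor (log2 fold change 0.31, edgeR adjusted p = 0.299), Hgf, hepatocyte growth factor (-0.40, edgeR adjusted p = 0.304), and Tcf21, a transcription factor of quiescent stellate cells (-0.30, edgeR adjusted p = 0.286). Gfap, a marker of quiescent stellate cells in culture, reached at most 0.496 CPM and was not tested, while the other 13 markers were detected in every liver. The summed level of the 14 markers was 465, 480, 480 and 515 CPM in control and 578, 421, 472 and 539 CPM in Smo-KO livers. Smo-KO mouse 1 was highest and Smo-KO mouse 2 lowest.

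Of 11 fibrillar matrix genes, 2 had a fold change above 0 and 9 below (median -0.16), and 2 (18.2%) had an unadjusted p under 0.05, both lower in Smo-KO livers, beside 7.15% of all genes. Col1a1, the major chain of type I collagen, had 213, 189, 180 and 179 CPM in control and 155, 112, 143 and 181 CPM in Smo-KO livers. Smo-KO mice 1, 2 and 3 were below all controls, and Smo-KO mouse 4 lay among them. The log2 fold change was -0.36 (SE 0.13, edgeR adjusted p = 0.248). Col5a1, a chain of the type V collagen that nucleates type I fibrils, had 37.6, 38.1, 37.5 and 33.8 CPM in control and 34.8, 23.0, 27.4 and 30.9 CPM in Smo-KO livers. Smo-KO mouse 1 exceeded the lowest control, and the other 3 were below all controls (log2 fold change -0.34, SE 0.12, edgeR adjusted p = 0.253).

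The 4 relatives of Lox all had fold changes below 0 (median -0.20), and 2 (50%) had an unadjusted p under 0.05, beside 7.15% of all genes in that direction. Loxl1, which acts on elastin, had 14.95, 15.7, 11.3 and 14.5 CPM in control and 11.6, 11.0, 11.5 and 10.6 CPM in Smo-KO livers. Control mouse 3 fell within the Smo-KO range and the other 3 controls were above it (log2 fold change -0.34, SE 0.13, edgeR adjusted p = 0.284). Loxl2, which cross-links collagen, had 18.0, 15.1, 19.2 and 17.5 CPM in control and 16.9, 11.2, 10.4 and 14.6 CPM in Smo-KO livers, where Smo-KO mouse 1 lay within the control range (log2 fold change -0.39, SE 0.16, edgeR adjusted p = 0.294). Summed over the 4 relatives, the level was 40.2, 39.4, 38.6 and 39.9 CPM in control and 37.1, 28.4, 30.1 and 32.8 CPM in Smo-KO livers. The sums did not overlap, 39.5 ± 0.704 against 32.1 ± 3.77 CPM (SD, n = 4 each), and none of the 4 genes was called alone. Among all single genes, 7.37% had groups that did not overlap, a share that does not apply to sums of genes. The sums of all other lists overlapped.

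**Figure D2:**
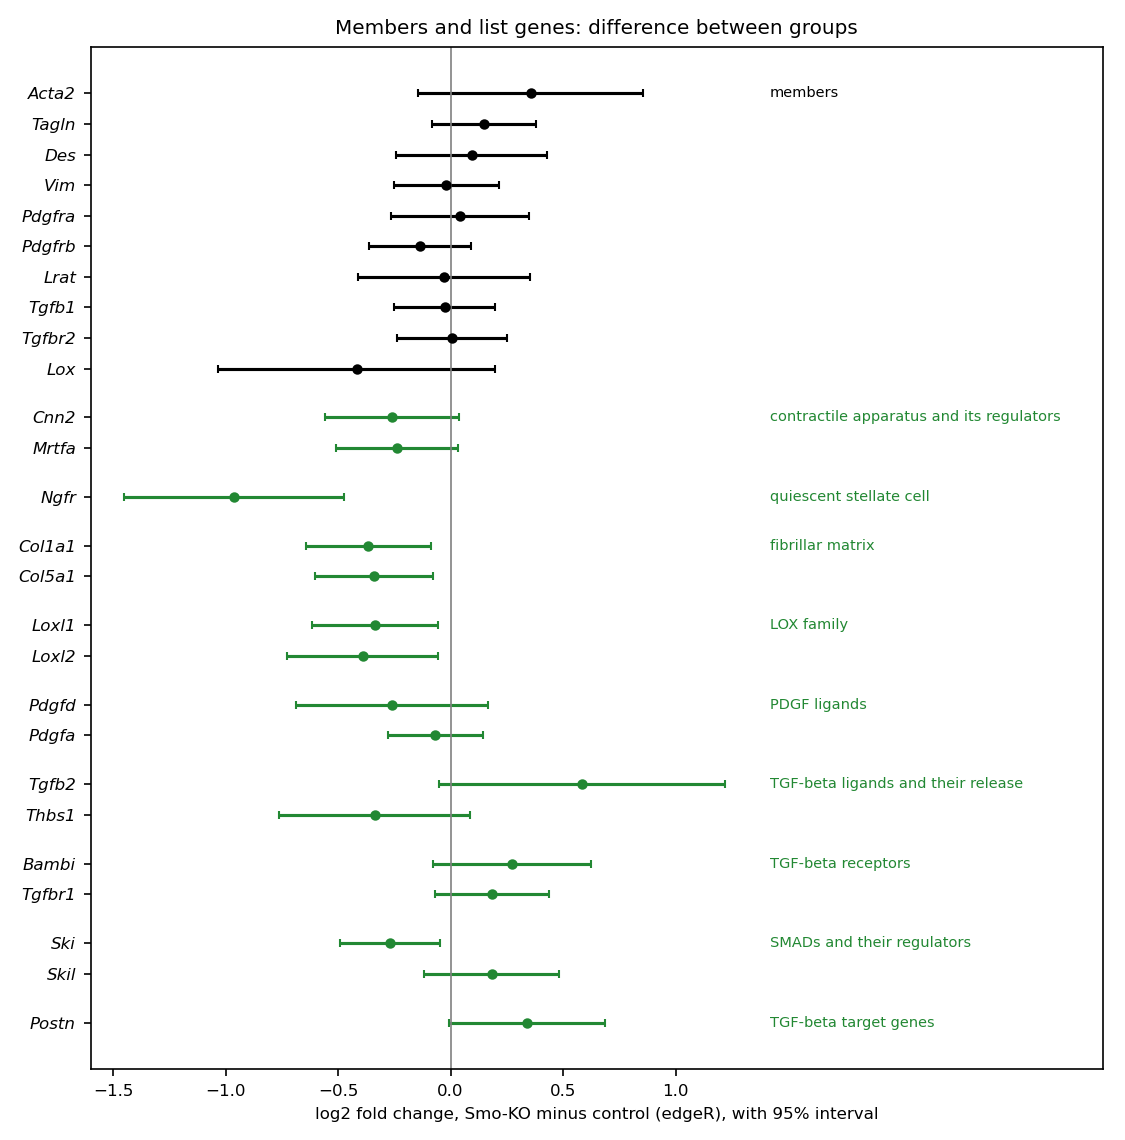
Each point is the log2 fold change of a gene, Smo-KO minus control (horizontal axis), from edgeR's test on 4 against 4 livers, and the bar is its 95% interval; the 10 genes are in black and the up to 2 genes shown for each pathway list, those with the smallest p, in green. The bars of all 10 genes cross 0, from -0.42 for Lox to 0.36 for Acta2, while those of Ngfr, Col1a1, Col5a1, Loxl1, Loxl2 and Ski do not reach it, with adjusted p values of 0.14 or more.

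The PDGF ligands, which act on the receptors described above, were 4, of which 2 had a fold change above 0 and 2 below, and 0 had an unadjusted p under 0.05. Pdgfd had a log2 fold change of -0.26 (SE 0.20, edgeR adjusted p = 0.588) at about 3 CPM in control livers (2.92 ± 0.350, SD, n = 4). Pdgfa, the most abundant of the 4 in reads, had a log2 fold change of -0.07 (SE 0.10, edgeR adjusted p = 0.797).

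In the TGF-beta pathway beyond Tgfb1 and Tgfbr2, 31 of 33 listed genes were tested, 13 with a fold change above 0 and 18 below, and 1 (3.23%) had an unadjusted p under 0.05, beside 13.8% of all genes. Of the ligands and the proteins that hold or release latent TGF-beta, 11 of 13 were tested and 0 had an unadjusted p under 0.05 (4 above 0, 7 below, median -0.08). The integrin genes Itgb6 and Itgb8 were below 1 CPM in every liver and were not tested. Tgfb2, a second ligand gene, had 2.49, 3.46, 3.08 and 2.57 CPM in control and 2.68, 7.08, 4.63 and 3.09 CPM in Smo-KO livers. Smo-KO mice 2 and 3 were above all controls and mice 1 and 4 among them, and the log2 fold change was 0.58 (SE 0.29, interval -0.05 to 1.22, edgeR adjusted p = 0.399). Thbs1, thrombospondin 1, an activator of the latent ligand, had a log2 fold change of -0.34 (SE 0.20, edgeR adjusted p = 0.47).

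Of 5 receptor genes beside Tgfbr2, 3 had a fold change above 0 and 2 below (median 0.17), with 0 at an unadjusted p under 0.05. Tgfbr1, the kinase that Tgfbr2 phosphorylates, had a log2 fold change of 0.18 (SE 0.12, edgeR adjusted p = 0.513), and Bambi, a decoy receptor that dampens the signal, one of 0.27 (SE 0.16, edgeR adjusted p = 0.479). Of 9 SMAD genes and regulators, 3 were above 0 and 6 below (median -0.02), and Ski alone had an unadjusted p under 0.05. Ski encodes a corepressor that binds SMADs. It had 56.9, 69.4, 58.3 and 53.2 CPM in control and 52.6, 49.2, 51.0 and 44.4 CPM in Smo-KO livers. The groups did not overlap, although Smo-KO mouse 1 came within 1 CPM of control mouse 4 (log2 fold change -0.27, SE 0.10, edgeR adjusted p = 0.283). Its relative Skil had a log2 fold change of 0.18 (SE 0.14, edgeR adjusted p = 0.589).

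The 6 genes that TGF-beta is known to induce split evenly, 3 above 0 and 3 below (median 0.00), with 0 at an unadjusted p under 0.05. Postn, the matrix protein periostin, had 27.9, 23.1, 37.8 and 34.2 CPM in control and 37.2, 32.8, 36.4 and 49.5 CPM in Smo-KO livers. Smo-KO mouse 4 was above all controls and the other 3 lay within the control range (log2 fold change 0.34, SE 0.16, edgeR unadjusted p = 0.0539, adjusted p = 0.369). Over all 75 tested genes of the pathway lists, 27 were above 0 and 48 below (median -0.08), and 10 (13.3%) had an unadjusted p under 0.05, a share close to the 13.8% of all genes. Of these 10, 2 had a fold change above 0 and 8 below.

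**Figure D3:**
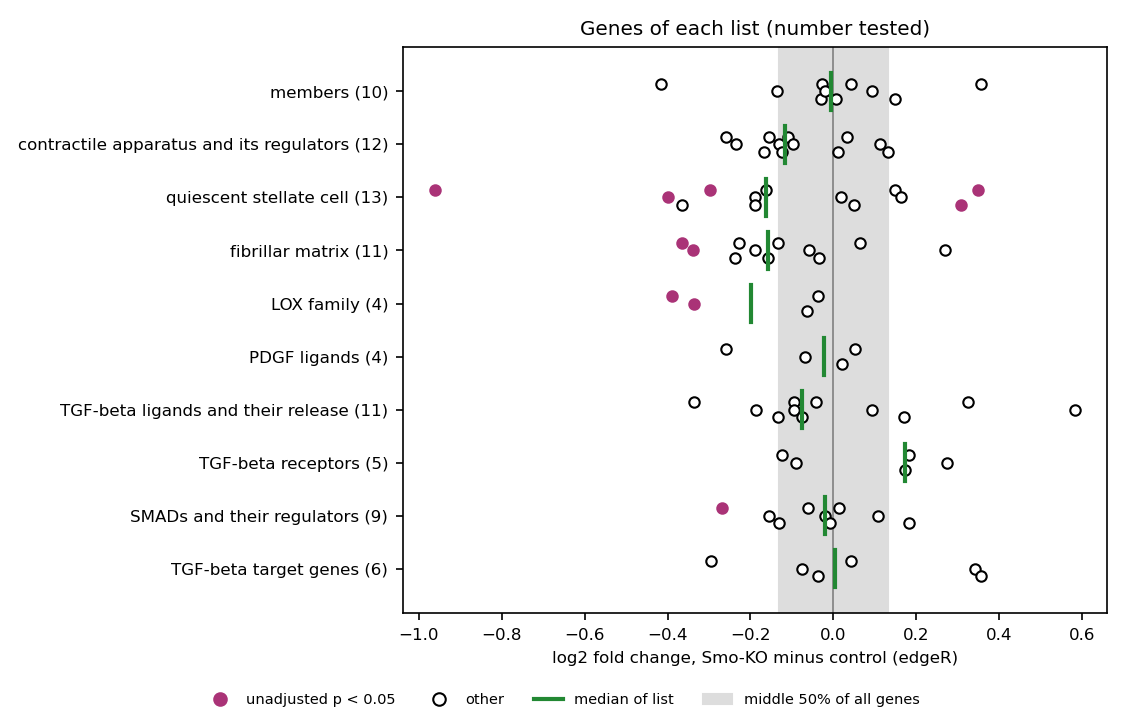
Each circle is a gene of the list named on the vertical axis, placed at its log2 fold change, Smo-KO minus control (edgeR, 4 livers a group); filled circles had an unadjusted p under 0.05, green bars are list medians and the grey band holds the middle 50% of all genes tested. The 10 genes centre on 0 with Acta2 and Lox at the ends, the LOX family, fibrillar matrix and quiescent stellate lists have medians of -0.20, -0.16 and -0.16, and Ngfr at -0.96 is the point farthest from 0.

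Cells other than stellate cells also express some of the 10 genes, and their markers were read in the same livers. Vascular smooth muscle expresses Acta2, Tagln and Des. Of its 7 markers, 4 averaged under 1 CPM and 3 were tested, 0 with an unadjusted p under 0.05. The most abundant was Mustn1 (11.1 CPM over the 8 livers, log2 fold change 0.24, edgeR adjusted p = 0.621), and Notch3, a receptor of mural cells, had a log2 fold change of -0.05 (edgeR adjusted p = 0.957). The markers summed to 15.3, 20.1, 15.8 and 15.7 CPM in control and to 20.8, 14.3, 22.4 and 16.8 CPM in Smo-KO livers. Smo-KO mouse 3, high for Acta2 and Tagln, had the highest sum, but Smo-KO mouse 4, highest for Acta2, lay among the controls. Mustn1 alone made up 16.1 of the 22.4 CPM in Smo-KO mouse 3. In that liver Notch3, at 2.31 CPM, lay within its control range of 2.17 to 3.97 CPM. The part of smooth muscle in the values of Acta2 and Tagln was not tested.

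Skeletal muscle, whose actin gene Acta1 is close in sequence to Acta2, left few reads. Of its 14 markers, 6 were at 0 in every liver and 13 averaged under 1 CPM, and the most abundant was Mylpf (1.37 CPM). Their sums were 2.95, 2.83, 5.36 and 4.54 CPM in control and 3.501, 1.85, 3.78 and 4.47 CPM in Smo-KO livers, with no separation of the groups. Acta1 was at 0.453, 0.314, 2.58 and 1.68 CPM in control livers and at 0.206, 0, 0.122 and 0.213 CPM in Smo-KO livers. The 26 and 17 Acta1 reads of control mice 3 and 4 stand against the 94 and 81 Acta2 reads of the same livers, and how reads that match both actins were counted is not given in the sources used here.

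Endothelial, macrophage and lymphocyte markers bear on Vim, Tgfb1 and Tgfbr2, which these cells express too. All 6 endothelial markers had fold changes below 0 (median -0.27), and Pecam1, an adhesion protein of endothelial junctions, had an unadjusted p under 0.05 (log2 fold change -0.50, SE 0.20, edgeR adjusted p = 0.292), as did 7.15% of all genes in that direction. The most abundant of them was Clec4g, a lectin of sinusoidal endothelium (log2 fold change -0.26, edgeR adjusted p = 0.588). None of the 6 was at 0 in any liver. They summed to 172, 163, 196 and 200 CPM in control and to 210, 99.5, 130 and 167 CPM in Smo-KO livers. The sum was lowest in Smo-KO mouse 2, in which the fibrillar matrix sum (1099 CPM against 1365 to 1577 CPM in control livers) and 5 of the 10 genes were also lowest, and highest in Smo-KO mouse 1. In Smo-KO mouse 2 the sums of the skeletal muscle and of the T and NK lymphocyte markers were lowest too. Whether these values share a source was not tested.

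Of 7 macrophage markers, 4 had a fold change above 0 and 3 below (median 0.06), and 2 (28.6%) had an unadjusted p under 0.05, both above 0, beside 6.7% of all genes in that direction. Trem2, a receptor of lipid-associated macrophages, had 29.8, 36.1, 32.8 and 35.7 CPM in control and 43.9, 54.6, 66.4 and 61.0 CPM in Smo-KO livers. Its groups were well apart, with a log2 fold change of 0.75 (SE 0.13, edgeR adjusted p = 0.0957, DESeq2 adjusted p = 0.000169). Lyz2, lysozyme and the most abundant of the 7, had a log2 fold change of 0.31 (SE 0.10, edgeR adjusted p = 0.219). The summed level was 1166, 1214, 1379 and 1275 CPM in control and 1503, 1281, 1337 and 1284 CPM in Smo-KO livers, and these sums overlapped.

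Of 8 T and NK lymphocyte markers, 6 were tested, all with fold changes below 0 and 4 (66.7%) with an unadjusted p under 0.05, beside 7.15% of all genes in that direction. Il2rb, the beta chain of the interleukin 2 receptor, had 7.59, 14.1, 8.64 and 11.8 CPM in control and 4.22, 3.38, 4.26 and 5.86 CPM in Smo-KO livers, all below the controls. The log2 fold changes were -1.25 for Il2rb (SE 0.23, edgeR adjusted p = 0.0957), -0.94 for Nkg7, a protein of cytotoxic granules (SE 0.22, edgeR adjusted p = 0.14), -0.98 for Cd3e and -0.68 for Cd3g, both parts of the T cell receptor complex (edgeR adjusted p = 0.175 and 0.237). DESeq2 called 3 of the 6, Cd3e, Il2rb and Nkg7, beside 1.29% of all genes. The list's most abundant gene, Ptprc, the CD45 of all leukocytes, had a log2 fold change of -0.01. The sums, 93.2, 130, 108 and 115 CPM in control and 81.9, 77.2, 106 and 95.4 CPM in Smo-KO livers, overlapped. Ptprc alone made up 51.5, 81.4, 71.6 and 60.5 CPM of the control sums. Of the Smo-KO sums it made up 61.6, 60.2, 75.9 and 66.3 CPM. The overlap of the sums therefore does not describe the T and NK genes alone. Vim and Tgfb1 had log2 fold changes of -0.02 and -0.03 in the same livers, and the share of leukocyte RNA in either was not tested.

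**Figure D4:**
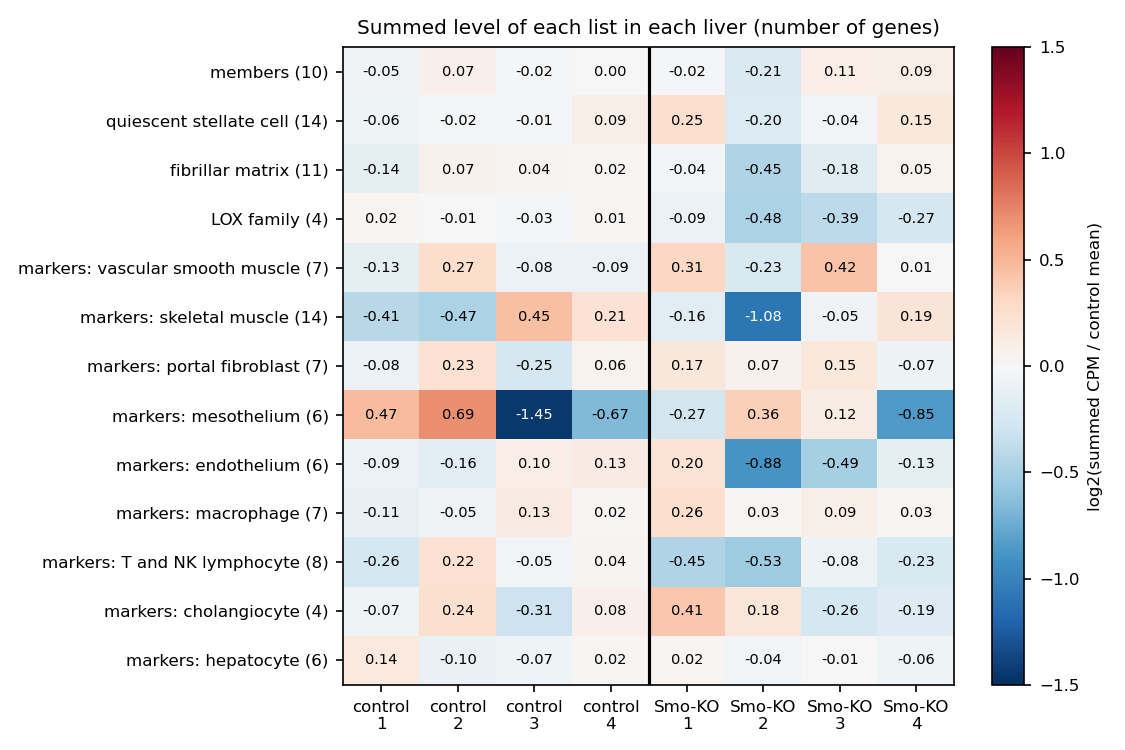
Each cell of the map is the summed CPM of a list of genes in a liver (columns, 4 control then 4 Smo-KO) relative to the control mean, as log2 and printed in the cell; the number of genes in each list stands in parentheses. The row of the 10 genes stays between -0.21 and 0.11. Smo-KO mouse 2 has low values for skeletal muscle (-1.08), endothelium (-0.88), T and NK lymphocyte (-0.53), LOX family (-0.48) and fibrillar matrix (-0.45). Its mesothelium value is above 0 (0.36). The LOX family is the list whose 4 Smo-KO values (-0.09, -0.48, -0.39 and -0.27) all lie below the 4 control values.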

How the data were processed

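For each liver the authors deposited a list of gene symbols with whole-number read counts, not normalized. Per the labels' processing notes, fastp, STAR 2.7.5, featureCounts 2.0.1 and GRCm38 were used. The lists nevertheless end with 5 summary entries in the form that htseq-count writes, which entered neither library sizes nor tests. In control livers 8.33% ± 0.743 of counted reads fell on no gene, against 9.23% ± 0.330 in Smo-KO livers (SD, n = 4 a group, p = 0.114 by a two-sided exact permutation test). Reads that hit several genes made up 2.55% ± 0.0719 and 2.51% ± 0.0456 (SD, n = 4 a group, p = 0.457 by the same exact test). Annotation, strand and treatment of multiply mapped reads are not given in the sources used here.

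Counts were tested with edgeR 4.0.16 under R 4.3.3 (genes kept by filterByExpr, TMM scaling, glmQLFit and glmQLFTest, two-sided, Benjamini-Hochberg over 12977 genes, threshold 0.05), checked on simulated counts. SEs are those implied by the F statistic. DESeq2 1.42.0, without independent filtering of adjusted p, was an alternative. Positions and exon lengths are from GENCODE M21 on GRCm38, matched by symbol. In log2 CPM for the nearest genes a prior count of 2 was used. A count of 3 reads was worth 0.296 to 0.365 CPM, counting error only, since molecular identifiers are not given. Within groups, the chi-square per degree of freedom between 2 libraries was 8.17 to 18.5, so none was a copy. The labels do not say whether the mice of a group were litter mates. Figures were drawn with matplotlib 3.10.9.

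The 10 genes and the 18 lists were chosen with earlier results of these data known. Genes named were Smo, the 10, Acta1, the 2 smallest p per list among genes tested, the most abundant gene of each marker list, and the 5 nearest in pattern to Acta2 and to Lrat. Results of 2 single genes that the rule names are not reported here, and all counts, medians and sums still include them. Hand2, Hgf, Tcf21, Cd3e, Cd3g and the untested Myocd, Gfap, Itgb6, Itgb8 and Gli1 are named outside the rule, after their values were seen. Muc16, of which no counts were analysed, is named outside the rule too. Alternatives were other size factors, DESeq2, other filters, a looser threshold, a replicate block and each mouse left out.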

Additional observations from a re-analysis of the deposited data

Results flagged for a closer look

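In 160 groups of 4 livers examined for a value far from the other 3 (Dixon's criterion, 95%), 6 were found, where chance gives about 8. Lox was at 9.157 CPM in Smo-KO mouse 4, against 3.41 to 4.22 CPM in the other Smo-KO livers, from 86 reads. Col5a1 was at 33.79 CPM in control mouse 4, against 37.5 to 38.1 CPM in the other controls. Sox9, a transcription factor of bile duct cells, was at 13.7 CPM in Smo-KO mouse 1, against 8.93 to 9.74 CPM in the other Smo-KO livers. The summed TGF-beta ligands and their release proteins were at 455.3 CPM in control mouse 2, against 430 to 433 CPM in the other controls, and the summed vascular smooth muscle markers of the same mouse were at 20.11 CPM, against 15.3 to 15.8 CPM. The library of Smo-KO mouse 3 held 8203299 reads on genes, while the remaining Smo-KO libraries held 9367795 to 9543675.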

How the results depend on the processing

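Under every alternative, 0 of the 10 genes had an adjusted p under 0.05 (0.1 for the looser threshold). The median over all genes tested stayed between -0.0026 and 0.0061 on the log2 scale in all of them. Genes called among all those tested numbered 0 by edgeR (1797 at an unadjusted p under 0.05), 15 at an adjusted p of 0.1, 167 by DESeq2, 61 without the filter on low counts, 8 with the replicate number as a block and 0 to 78 with 1 mouse left out (78 without Smo-KO mouse 1, 5 without control mouse 1, 4 without Smo-KO mouse 3). With 1 mouse left out, 0 to 1 of the 10 had an unadjusted p under 0.05: Acta2 without Smo-KO mouse 2 and Lox without Smo-KO mouse 4. Several small differences changed sign with 1 mouse left out: Des ran from -0.0071 to 0.1972, Vim from -0.1003 to 0.0709, Pdgfra from -0.0481 to 0.1473, Lrat from -0.1559 to 0.0979, Tgfb1 from -0.0666 to 0.0432, Tgfbr2 from -0.0819 to 0.0793, Notch3 from -0.1973 to 0.0719, Gpm6a from -0.1821 to 0.3246 and Ptprc from -0.1081 to 0.1108. Acta2, Tagln, Pdgfrb and Lox kept their sign throughout. With the replicate block Tgfbr2 was at -0.0015 and Ptprc at 0.0089, and DESeq2 put Ptprc at 0.0001. Whether the numbers pair the mice was not settled. After removal of group means, the 4 same-numbered pairs of livers correlated at 0.0611 to 0.187, all above 0. The 12 other pairs ranged from -0.205 to 0.157, on both sides of 0. With the replicate block 2114 genes had an unadjusted p under 0.05 by edgeR, against 1797 without it. Smo, Ngfr, Trem2, Il2rb and Nkg7 were called by DESeq2, Smo, Trem2 and Il2rb also without the filter, Smo and Trem2 without Smo-KO mouse 1 (edgeR adjusted p = 0.0265 and 0.0200), and Trem2 with the replicate block (edgeR adjusted p = 0.0457). Genes under about 10 CPM, such as Lox, rest on fewer than 100 reads a liver.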

Other observations

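Other cells of the liver contributed further mesenchymal and epithelial markers. Of 7 portal fibroblast markers, 6 were tested and 2 (33.3%) had an unadjusted p under 0.05, in opposite directions, beside 13.8% of all genes. Thy1, a surface glycoprotein of portal fibroblasts that T cells of mice carry too, had 14.8, 12.3, 9.33 and 14.3 CPM in control and 10.6, 5.56, 8.28 and 7.67 CPM in Smo-KO livers (log2 fold change -0.66, SE 0.20, edgeR adjusted p = 0.205). Entpd2, an ectonucleotidase of portal fibroblasts and the most abundant of the list, had 22.1, 23.0, 22.3 and 21.9 CPM in control and 31.8, 26.5, 34.96 and 23.7 CPM in Smo-KO livers, all above the controls (log2 fold change 0.39, SE 0.12, edgeR adjusted p = 0.217). Gli1, a Hedgehog target gene, reached at most 1.47 CPM and was not tested. The list summed to 67.9, 84.5, 60.3 and 74.8 CPM in control and to 80.6, 75.3, 80.0 and 68.3 CPM in Smo-KO livers.

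Mesothelial markers, from the cells that cover the liver surface, varied widely among livers of both groups: their sums were 8.27, 9.64, 2.18 and 3.75 CPM in control and 4.94, 7.63, 6.46 and 3.30 CPM in Smo-KO livers. Only Wt1, a transcription factor and the most abundant of them, and Gpm6a, a membrane glycoprotein, could be tested. Of the 7 listed markers, 6 were among the counted symbols, and Muc16 was not analysed here. Wt1 had a log2 fold change of 0.86 (SE 0.43, edgeR adjusted p = 0.396) from 5 to 30 reads per liver. With 1 mouse left out, this estimate ran from 0.57 (without control mouse 3) to 1.47 (without control mouse 2). For Gpm6a the log2 fold change was 0.10 (edgeR adjusted p = 0.921). None of the 4 bile duct markers had an unadjusted p under 0.05 by edgeR. Epcam, an epithelial adhesion protein, had a log2 fold change of 0.42 (SE 0.25, edgeR adjusted p = 0.471), and Sox9, the most abundant, one of -0.19 (SE 0.16, edgeR adjusted p = 0.627). Of the 6 hepatocyte markers 0 had an unadjusted p under 0.05, and Alb, the albumin gene and the most abundant at 15936 CPM over the 8 livers, had a log2 fold change of -0.11 (SE 0.09, edgeR adjusted p = 0.629). Apoa1, the main protein of high-density lipoprotein, had one of 0.18 (SE 0.10, edgeR adjusted p = 0.465).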
